A study of Sus scrofa with 80 samples.

Results

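In pig blood, 50 genes were chosen because their level split the animals across a wide empty interval, here called the gap. The choice was made by the measured values themselves. The level of each gene was sorted over 29 animals, and the largest gap that left at least 5 animals on each side was taken. Of 6765 genes with a probe set of 1 symbol, 6626 could be ranked by that gap after the exclusions below, and the first 50 were kept. Exclusions by name removed OAS1, RSAD2 and symbols beginning SLC or SLA, and a further one removed probe sets whose level followed EIF1AY, a Y-linked translation factor gene in humans, with an absolute correlation of 0.7 or more. The gaps, sides and side means are therefore a description of what was selected and carry no test.

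The animals were weaned pigs aged 35 days, and RNA came from blood drawn from a large vein near the heart. A total of 80 columns of Affymetrix porcine array values were deposited, in 8 trait pairs. Each pair joined 2 traits among the CD4+ and CD8+ measurements made by flow cytometry, IFN-alpha, IL-10 and body weight on day 35 (W35), and the animals were ordered on a combined value that the study calls the self-product. The 5 animals at each end formed the low and the high group of a pair. The labels give no genotype, breed, sex or treatment. Per the series' design text, an animal has 1 scan, which serves in each pair that includes the animal. The 80 columns stood for 29 animals with 1 to 7 columns each, since columns of an animal correlated at 0.9939 or more and columns of different animals at 0.9882 at most. Of these, 21 animals occurred in more than 1 pair and 13 carried a high label in 1 pair and a low label in another. Each level below therefore rests on 1 hybridisation per animal, with no repeat. An array gives no read depth, so the number of animals and arrays limits the precision.

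Whole blood mixes red cell precursors, platelets and several kinds of white cell, and each contributes its own transcripts in proportion to its number. In bulk blood, fewer cells of a type and less RNA per cell cannot be told apart. The set held genes known from red cells or platelets, inflammatory signals, genes best known from macrophages, and housekeeping genes such as ribosomal proteins and actin that are usually treated as constant. Markers of blood were measured in all animals, with median log2 levels of 12.4 for ALAS2 of red cells, 10.8 for PPBP of platelets, 9.46 for CD3E of T cells and 8.11 for CD14 of monocytes.

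The largest gap belonged to GPNMB, a membrane glycoprotein of macrophages and dendritic cells. Its log2 level ran from 6.36 to 8.11, with a median of 7.44, in 17 animals. In the other 12 animals it ran from 10.16 to 11.69, with a median of 11.22. The sides were 2.04 log2 units apart at their nearest points and their means differed 12.7-fold, while the SD within each side was 0.53 and 0.56. After all columns were normalized together, GPNMB moved by at most 0.31 over the columns of 1 animal. A further probe set of GPNMB on the same arrays kept the same animals apart, at 3.89 to 4.88 against 5.14 to 7.73, whereas 3 dimmer ones with means of 3.21 to 3.59 overlapped between the sides. With the deposited values averaged per animal, without a common normalization, the gap was 1.38.

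The other gaps were smaller and graded into one another. Only 3 of 50 exceeded 1 log2 unit, those of GPNMB, ITM2A and LOC100738720. The last gene inside was RAB18, a small GTPase of intracellular membranes, at 0.56 with 5 animals below and 24 above. The first outside was EDN1, which encodes the vasoconstrictor peptide endothelin-1, at 0.55 with 18 below and 11 above, followed by DNAJB1 at 0.552 and FZD6 at 0.5515. Over all ranked genes the median gap was 0.13 and the 99th percentile 0.53. Means of the sides differed between 2.35-fold and 17.1-fold over the 50 genes, with a median of 4.33-fold. The gap exceeded the SD of both sides in 25 genes and of neither in 3, AHSP, TFPI2 and CR1, so that only part of the set had 2 compact levels and the others were wide distributions with an interval missing. In 18 genes exactly 5 animals lay on a side, 12 times the upper and 6 times the lower, and in 18 genes each side held at least 10. In 12 genes, among them GPM6B, ACTB, TFPI2 and TNF, some animal's own columns, normalized together, differed by as much as the gap. The difference was up to 1.99 for TFPI2, although all columns of an animal come from 1 scan.

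**Figure D1:**
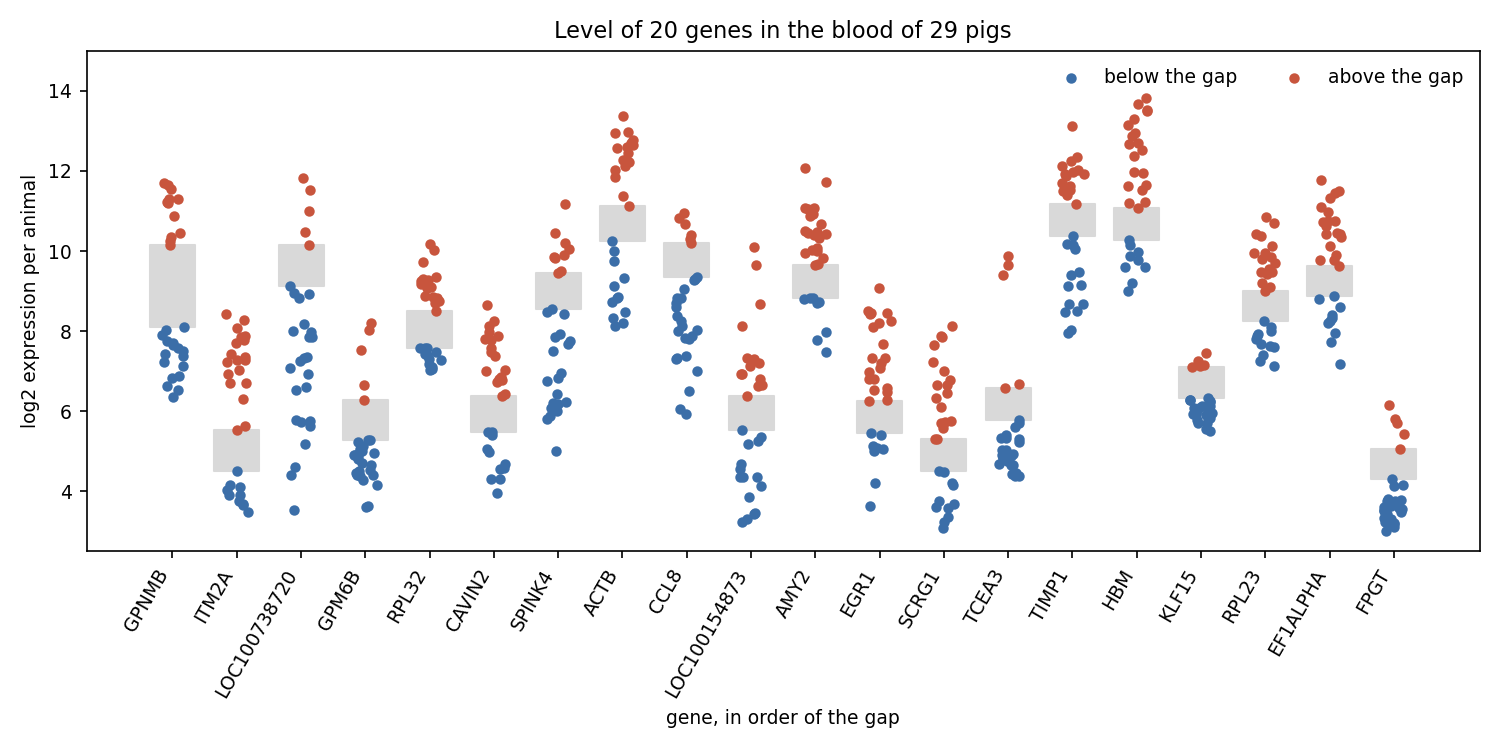
Log2 expression per animal (vertical axis) of the 20 genes with the largest gap, in order of the gap, each point 1 of 29 pigs and the grey box the gap. GPNMB has 17 pigs below 8.12 and 12 above 10.15, whereas in LOC100738720 the 24 pigs below the gap already spread from 3.53 to 9.14.

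HBM and AHSP were the only ones of the 50 genes in the red cell list, and 4 further genes are set beside them after their values were seen. HBM encodes an alpha-like globin and AHSP the chaperone that binds free alpha globin in red cell precursors of mammals. HBM ran from 9.01 to 10.26, median 9.78, in 9 animals and from 11.06 to 13.83, median 12.60, in 20. AHSP ran from 6.49 to 8.75 in 5 animals and from 9.41 to 13.09, median 11.07, in 24. The 2 genes put 25 of 29 animals on the same side. UBE2O, a ubiquitin-conjugating enzyme that acts in red cell maturation in mice, was above its gap in 8 animals, at 10.81 to 12.30 against 8.23 to 10.11. SPINK4, a serine protease inhibitor best known from gut goblet cells, was above its gap in 9 animals, at 9.45 to 11.18 against 5.01 to 8.56. UBE2O and SPINK4 lay on the same side in 26 of 29 animals, and UBE2O shared the side of 26 animals with LOC100738720, whose levels were 10.15 to 11.81 in 5 animals and 3.53 to 9.14 in 24. LOC100154873 divided the animals almost evenly, with 15 at 3.24 to 5.54 and 14 at 6.39 to 10.09. The gaps of the 6 genes lay at different places. HBM shared the side of 17 animals with UBE2O and 18 with SPINK4, and AHSP and LOC100738720 were on opposite sides in 19 of 29. Given how many animals lay above each gap, sides could not agree in more animals than this. The levels themselves correlated, at 0.85 for HBM with UBE2O, 0.95 for HBM with SPINK4 and 0.86 for AHSP with LOC100738720.

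The mean of the other red cell genes on the array moved with these genes. It was built from 7 genes, with HBM and AHSP left out, and lay between 6.91 and 9.32 over the animals. All 7 genes were on average higher in the upper animals of HBM, UBE2O, SPINK4, LOC100738720 and LOC100154873, and 6 of 7 in those of AHSP. For SPINK4 the list mean did not overlap between the sides, at 6.91 to 8.47 below and 8.49 to 9.32 above, with the nearest animals almost equal. For HBM it was 6.91 to 8.02 against 7.66 to 9.32, and the ranges overlapped, as they did for the other 4. A single other probe set of SPINK4 did not follow it, at 6.36 to 7.27 below and 6.07 to 7.11 above. GPBP1, which binds GC-rich promoters, and CPEB4, which acts on poly(A) tails of messenger RNAs, shared the side of 28 of 29 animals and went the other way. Both were low in most animals, so this count is high by construction, and their levels correlated at 0.86. The red cell mean had a median of 8.06 on the lower and 7.55 on the upper side of GPBP1, and the gaps of these genes were 0.56 and 0.72. The part of red cells in these levels was not tested.

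CAVIN2, RHOU, TMOD1 and CLU are set side by side here after their values were seen, as none of the 50 genes was in the platelet list. CAVIN2, a coat protein of caveolae that is abundant in platelets, ran from 3.97 to 5.48, median 4.67, in 11 animals and from 6.37 to 8.65, median 7.43, in 18. RHOU lay on the same side as CAVIN2 in 27 of 29 animals, at 4.28 to 5.86 in 11 and 6.43 to 8.02 in 18. TMOD1 caps actin filaments in the red cell membrane skeleton and CLU encodes the secreted chaperone clusterin, which platelets store. TMOD1 was low in 5 animals and CLU in 6, and these genes shared the side of 26 of 29. Both were high in most animals, so this count is high by construction, and their levels correlated at 0.75. Between CAVIN2 or RHOU and TMOD1 or CLU the count was 21 to 24. The mean of 8 platelet genes, among them no chosen gene, lay between 8.46 and 9.62 below the CAVIN2 gap and between 9.11 and 10.42 above it. Of its 8 genes, 7 were on average higher in the upper animals of CAVIN2 and of RHOU and 8 in those of CLU and TMOD1. The ranges of the list mean overlapped for all 4 genes. The control for RNA quality also differed: the difference between 3′ and 5′ actin control probes, which is larger where RNA is shorter, had a median of 1.63 below and 0.73 above the CAVIN2 gap. The part of platelets or of RNA quality in these levels was not tested.

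**Figure D2:**
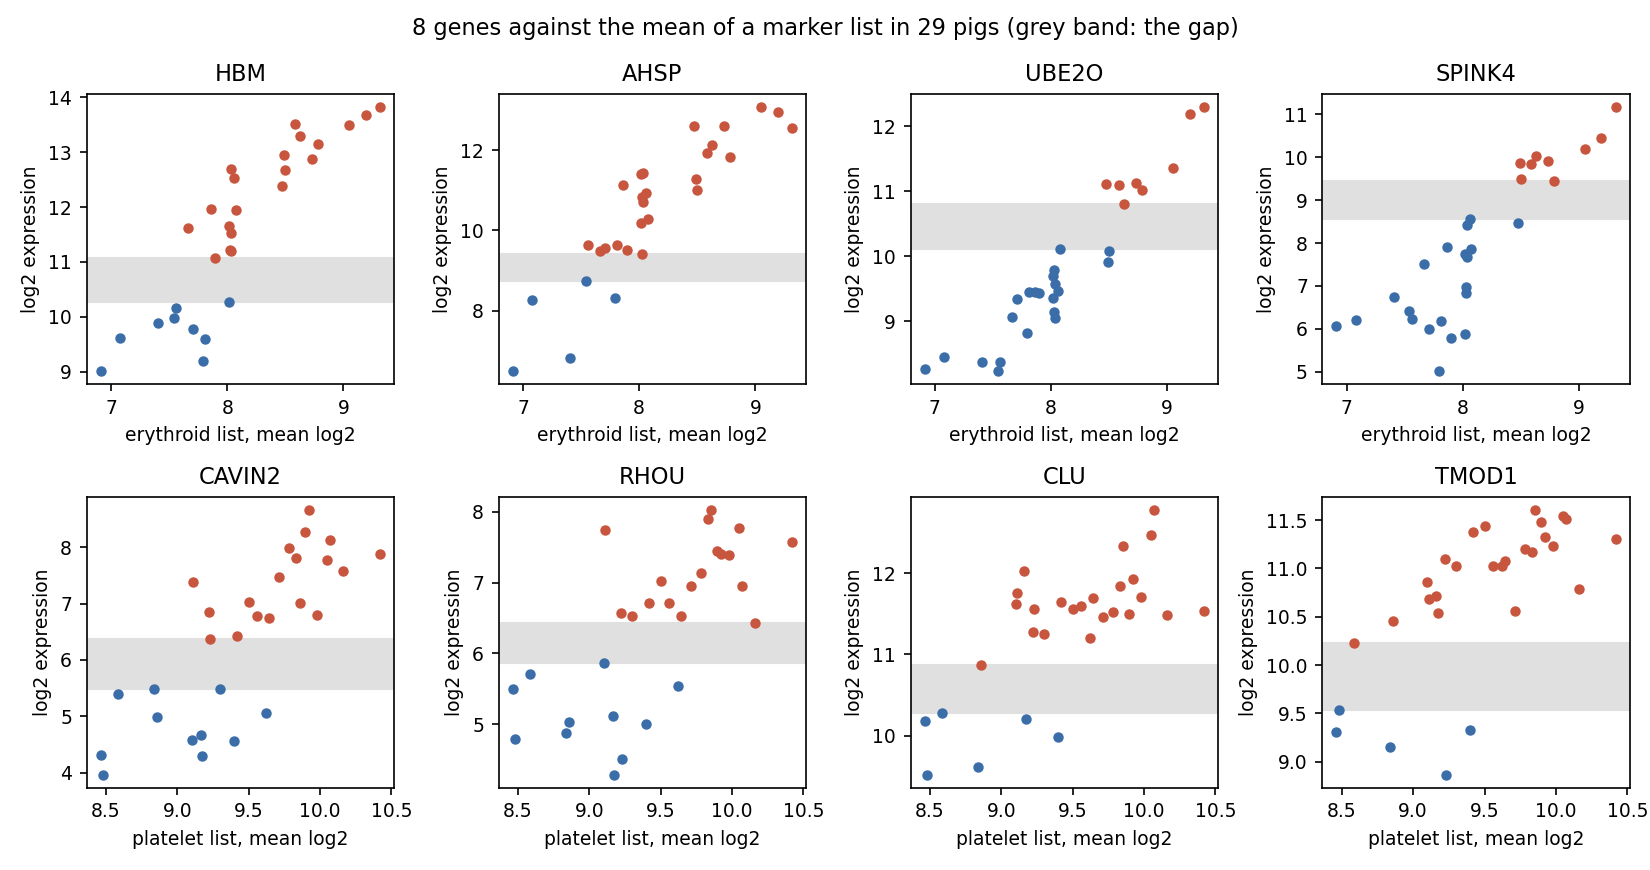
Log2 level of 8 genes (vertical axes) against the mean log2 level of 7 red cell or 8 platelet marker genes (horizontal axes), each point 1 of 29 pigs and the grey band the gap. The upper 9 pigs for SPINK4 are the 9 with a red cell mean of 8.49 or more, while the platelet means of the 11 lower and 18 upper pigs for CAVIN2 overlap between 9.11 and 9.62.

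Inflammatory and early response genes had gaps at different places, and their levels correlated in some pairs and not in others. EGR1, a transcription factor induced within minutes of many stimuli, ran from 3.64 to 5.44 in 8 animals and from 6.26 to 9.08, median 7.32, in 21. TNF, a central inflammatory cytokine, ran from 7.54 to 8.69 in 12 animals and from 9.26 to 10.82 in 17, and shared the side of 23 of 29 animals with EGR1. CCL8, a chemokine that attracts monocytes, was at 10.20 to 10.94 in 6 animals and 5.93 to 9.35 in 23. The cytokine gene IL1B was above its gap in 5 animals, at 9.81 to 10.47 against 6.21 to 9.22, and so was CEBPD, a transcription factor of the acute phase response, at 10.25 to 10.67 against 6.67 to 9.67. RHOB, a small GTPase that is an immediate early gene, was above its gap in 5 animals, with a median of 11.33 against 9.66 in the other 24. CCL8 shared the side of 22 animals with IL1B and of 22 with CEBPD, but as all 3 were low in most animals such counts are high by construction. EGR1 and RHOB shared the side of 13 animals, and given how many lay above each gap they could not agree in more. Levels correlated at 0.72 for EGR1 with RHOB, 0.67 for EGR1 with TNF and 0.50 for CCL8 with TNF. The correlation was 0.37 for CCL8 with IL1B, -0.11 for CCL8 with CEBPD, -0.25 for RHOB with IL1B and -0.32 for IL1B with CEBPD. The only other probe set of IL1B kept the sides apart, at 7.55 to 10.78 against 11.32 to 11.97. EGR1 and CEBPD each had 1 other probe set that did so and 1 that overlapped, and all 3 others of RHOB overlapped. IL18, a cytokine of monocytes and macrophages, was at 7.29 to 9.22 in 11 animals and 9.80 to 11.97 in 18, and all 8 genes of the monocyte list were on average higher in the upper animals, with list means of 6.72 to 8.12 against 7.28 to 8.96. That list was picked from all marker lists after the values were seen.

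Genes best known from macrophages, connective tissue and other tissues also split the animals. VSIG4, a complement receptor of tissue macrophages, was at 3.71 to 4.78 in 20 animals and 5.47 to 11.80 in 9, of which 5 were at 5.47 to 6.14 and 4 at 8.32 to 11.80. TIMP1, an inhibitor of matrix metalloproteinases, divided the animals into 14 at 7.94 to 10.36 and 15 at 11.16 to 13.12. TFPI2, a protease inhibitor of the extracellular matrix, and GPM6B, a membrane protein of the nervous system, shared the side of 28 of 29 animals, and GPM6B was at 6.29 to 8.20 in 5 animals against 3.62 to 5.29. Of 13 T cell genes, 12 were on average lower in these 5 animals, in which the list mean was 7.23 to 8.30 against 8.12 to 9.15. The T cell list was likewise picked after the values were seen. TCEA3, a transcription elongation factor of the TFIIS family, was at 6.59 to 9.87 in 5 animals and 4.39 to 5.79 in 24. Within those 5, 2 animals were at 6.59 and 6.68 and 3 at 9.40 to 9.87. ASRGL1, an asparaginase, lay on the same side as TCEA3 in 27 animals, and CR1, a complement receptor, did so with METTL21A, a lysine methyltransferase, in 27. KLF15, a transcription factor, was at 7.11 to 7.45 in 5 animals and its sides were opposite to those of CR1 in 27 animals. In TFPI2, GPM6B, TCEA3, ASRGL1, CR1, METTL21A and KLF15 most animals lay on the same side of the gap, so these counts are high by construction. The correlations were 0.86 for GPM6B with TFPI2, 0.74 for TCEA3 with ASRGL1, 0.70 for CR1 with METTL21A and -0.68 for KLF15 with CR1. With deposited values averaged per animal the gap of KLF15 was 0.37 in place of 0.79.

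ITM2A, a membrane protein of activated T cells, had a gap of 1.04, at 3.47 to 4.50 in 10 animals and 5.54 to 8.43 in 19. Its correlation with EIF1AY over the 29 animals was -0.67, just inside the exclusion at 0.7. EIF1AY itself was at 3.30 or below in 18 animals and at 7.41 or above in 11. Of the 18 animals with low EIF1AY 16 were above the ITM2A gap, and of the 11 with high EIF1AY 3 were. NAP1L5, a gene imprinted in humans and mice, followed at -0.45, with 13 of 18 and 3 of 11 animals above its gap. GPNMB was at -0.34, with 10 of 18 and 2 of 11 animals above its gap. In the other direction IL18 was at 0.38, with 9 of 18 and 9 of 11, and TNF at 0.38, with 8 of 18 and 9 of 11. ITM2A, GPM6B, TIMP1 and VSIG4 lie on the X chromosome in the annotation of the pig genome, and of these GPM6B, TIMP1 and VSIG4 had correlations of 0.01, -0.15 and -0.15 with EIF1AY. A further probe set kept the ITM2A sides apart, at 4.21 to 5.26 against 5.32 to 7.29.

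Housekeeping genes gave the most uniform split. RPL32, RPL23 and RPL17, proteins of the large ribosomal subunit, put all 29 animals on the same sides, 12 below and 17 above. EF1ALPHA, the array's symbol for translation elongation factor 1 alpha, and B2M, the light chain of MHC class I, also agreed in all 29 animals, with 10 below and 19 above. With ACTB, the cytoskeletal beta actin, these 6 genes agreed in 25 to 29 animals for each of their 15 pairs, with correlations of 0.76 to 0.97, and 16 animals were above all 6 gaps, 9 below all 6 and 4 differed. None of the 6 agreed or disagreed with a chosen gene outside the 6 in more than 22 animals. RPL32 ran from 7.03 to 7.59, median 7.35, in its lower animals and from 8.51 to 10.18, median 9.17, in the upper ones. ACTB ran from 8.14 to 10.24, median 8.84, and from 11.12 to 13.36, median 12.44, a 10.3-fold difference of the means. These 6 were grouped after their values were seen.

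Each of the 6 genes has other probe sets, 19 in all, and each of the 19 overlapped between the sides. Their upper minus lower differences ran from -0.68 to 1.12 log2 units. An EF1ALPHA probe set with a mean of 12.84 followed the chosen one most closely, with a correlation of 0.80 and a difference of 1.12, and another of EF1ALPHA differed by 0.61. The brightest of each gene had means of 13.45 to 14.51, near the highest value of 14.96 in the deposited table. The level of that brightest probe set differed between upper and lower animals by -0.04 to 0.08 log2 units. For RPL32 it was 13.72 to 14.10 in the lower and 13.64 to 14.10 in the upper animals, while the chosen probe set differed by 1.85. Whether probe sets this bright could show a difference was not tested. Some probe sets lower on the scale also differed little. An RPL23 probe set with a mean of 10.16 differed by -0.25. Those of B2M with means of 9.84, 9.19 and 8.04 differed by -0.09, -0.08 and 0.05. Those of EF1ALPHA with means of 8.96 and 8.00 differed by -0.09 and -0.16. Why probe sets of a gene differed was not tested. Beyond the 6, 8 probe sets on the array correlated above 0.9 with the mean of the 6 over the 29 animals, and 48 above 0.8. The named ones nearest to it were RPS6 and RPL13A, further ribosomal proteins, CORO1A, an actin-binding protein of white cells, and TMSB10, which binds free actin, at 0.91 to 0.96. All these values share the same 29 hybridisations.

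**Figure D3:**
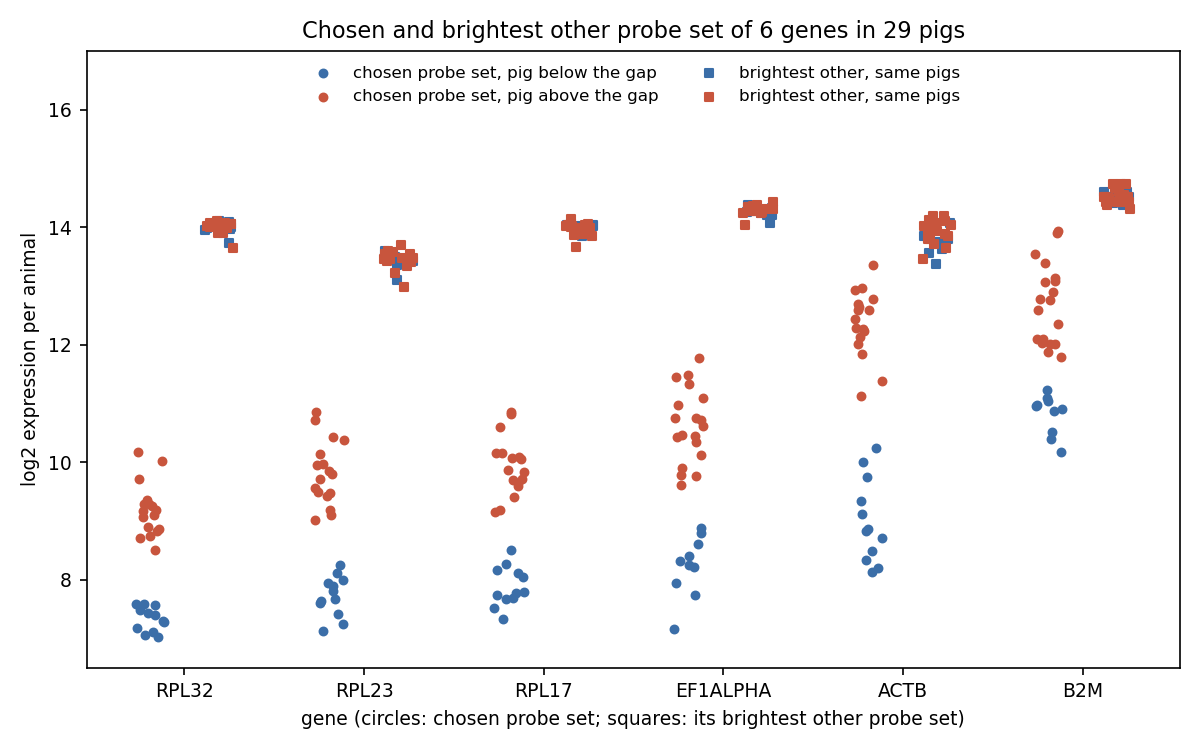
Log2 level per pig (vertical axis) of 6 housekeeping genes, with circles for the chosen probe set and squares for the brightest other probe set of the same gene, blue for pigs below and red for pigs above the gap. The circles of RPL32 part at 7.59 and 8.51, and the squares lie between 13.64 and 14.10 for both colours.

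Measures of the hybridisation and of the RNA, and the mean of neutrophil markers, differed on average across this split, with overlapping ranges. The neutrophil list was picked from all marker lists after the values were seen. Of 8 neutrophil genes 6 were on average higher in the upper animals of each of the 6 genes, and the list mean differed by 0.38 to 0.48, at 6.88 to 8.20 below and 7.27 to 9.56 above the RPL32 gap. For B2M and EF1ALPHA the list mean was 7.16 to 8.20 below and 6.88 to 9.56 above the gap. The 3′ minus 5′ actin control had a median of 0.50 in the 9 animals below all 6 gaps and 1.24 in the 16 above all 6, with ranges of 0.22 to 1.77 and 0.18 to 2.01. An 18S ribosomal RNA control had medians of 7.97 and 9.14 in the same animals. The bacterial spike-in controls bioB and bioC, labelled transcripts added to each hybridisation, fell into 2 classes, with bioB lower than bioC by at least 3.57 log2 units in 11 animals and by at most 1.69 in 18. Of the 11 animals of the lower spike-in class, 9 were above all 6 gaps, 0 below all 6 and 2 differed. Of the 18 in the higher class, 7 were above all 6, 9 below all 6 and 2 differed, so the split was present within that class. The part of neutrophils or of RNA quality in it was not tested.

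The spike-in classes played no part in the choice of the genes, so the difference between them was tested. Limma with Benjamini-Hochberg adjustment over 23999 probe sets on the 29 animal profiles called 347 probe sets at an adjusted p under 0.05, which is 1.45%. Of the 50 genes 2 passed, B2M and EF1ALPHA, both from the housekeeping block. B2M was at 11.88 to 13.93, median 13.09, in the lower spike-in class and 10.17 to 12.78, median 11.16, in the higher one, with ranges that overlap. The difference was 1.60 log2 units (SE 0.28, limma adjusted p = 0.00546), and all 11 animals of the lower class and 8 of 18 of the higher class were on the upper side. EF1ALPHA was at 9.62 to 11.78, median 10.74, against 7.17 to 10.97, median 8.84, and differed by 1.67 (SE 0.37, limma adjusted p = 0.0181). The next in order were DDX46, an RNA helicase of splicing, AMY2, a starch-digesting amylase, ACTB and CLU, with differences of 0.89, 1.06, 1.56 and -0.64 and limma adjusted p of 0.112 to 0.263. The median absolute difference was 0.39 for the 50 genes and 0.12 for all probe sets, and the 50 were selected for wide spread.

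Over the whole set, the medians of the 3′ minus 5′ actin control differed by more than 0.5 between the sides in 23 of 50 genes, being higher on the upper side in 14 and lower in 9, and its ranges overlapped between the sides in all 50. SNRPG, a core protein of splicing particles, was an example: it was at 6.23 to 6.71 in 5 animals and 7.32 to 8.43 in 24, and the actin control had medians of 0.44 and 1.20. All 7 red cell genes were on average lower in the upper animals of SNRPG, with list medians of 8.78 below and 8.02 above the gap. FPGT, an enzyme of fucose salvage, had the mirror image of SNRPG in all 29 animals, at 5.06 to 6.16 in those 5 and 3.02 to 4.32 in the other 24. In both genes most animals lay on the same side of the gap, so this count is high by construction, and their levels correlated at -0.87. The other probe set of FPGT and that of SNRPG overlapped between the sides and correlated with the chosen one at 0.52 and 0.24. AMY2 was at 7.49 to 8.84 in 8 animals and 9.66 to 12.08 in 21, with actin medians of 0.40 and 1.28. SCRG1, a secreted protein of cartilage formation, was at 3.09 to 4.50 in 11 animals and 5.31 to 8.13 in 18, with medians of 1.28 and 1.09. The part of RNA quality or of red cells in these levels was not tested.

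**Figure D4:**
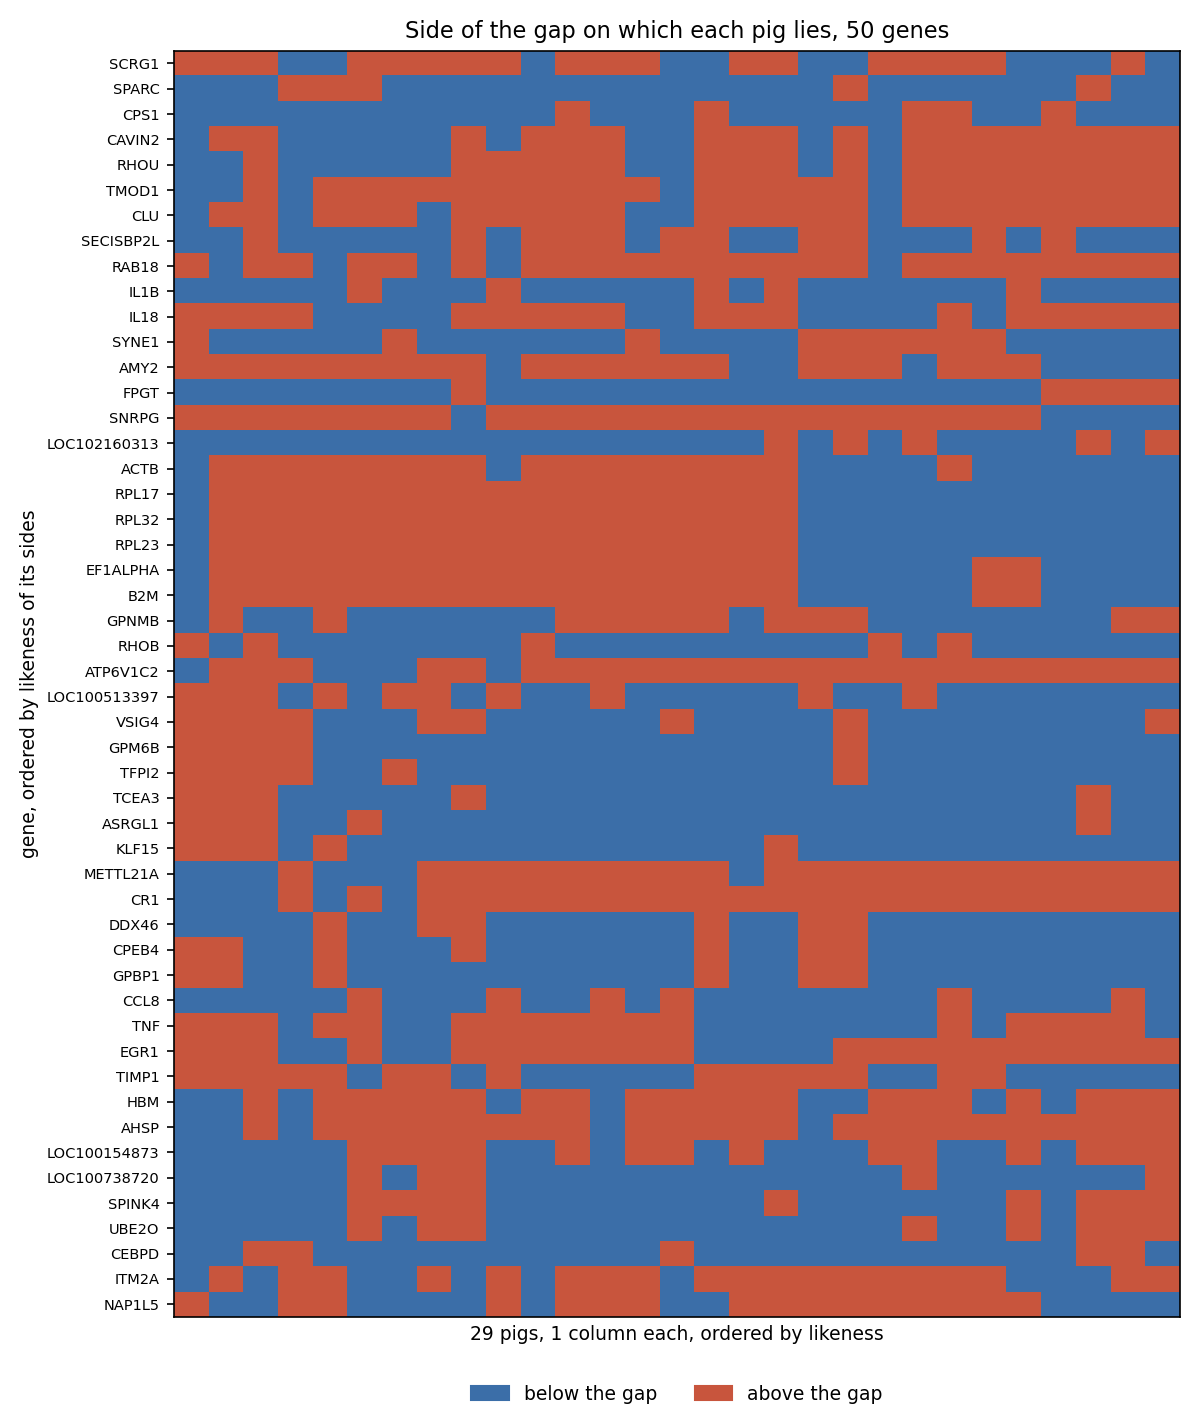
Side of the gap for 50 genes (rows) in 29 pigs (columns), blue below and red above, with rows and columns ordered by likeness. The block of RPL32, RPL23, RPL17, EF1ALPHA, B2M and ACTB stands out with 16 pigs above all 6 gaps, and FPGT and SNRPG are exact opposites.

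Other probe sets of the same gene were available for 31 of the 50 genes, 76 in all. Of these 76, 12 kept the same animals apart without overlap. They belonged to 11 genes, namely GPNMB, ITM2A, GPM6B, EGR1, TCEA3, LOC102160313, LOC100513397, IL1B, CEBPD, ASRGL1 and RHOU. A gene with many probe sets has more occasions for this, and for LOC102160313 only 1 of many did so. The best other probe set correlated with the chosen one at 0.8 or more in 14 genes and under 0.3 in 12. Those 12 were ACTB, B2M, RPL32, RPL23, RPL17, AMY2, SPINK4, SNRPG, DDX46, METTL21A, SECISBP2L and SPARC. Probe sets of a gene competed for the place in the set, so their likeness is a description.

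The trait groups were not used to choose the genes, so the high and low groups of each pair were compared with limma on the deposited values of 10 arrays, with all 23999 probe sets in the fit. No probe set, and so none of the 50 genes, passed an adjusted p of 0.05 in any of the 8 pairs, a share of 0% each, and the smallest adjusted p of a chosen gene was 0.552. The pairs share animals, so the counts below are 8 views of overlapping samples. Where the labels give no separate cultures or repeats, the p-values measure the spread between animals only. Because nothing passed, the sentences below give values, and counts at an unadjusted p under 0.05. An array is counted above a gap by its animal's normalized average, which can differ from the deposited value.

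In CD4+ with W35, 11 of the 50 genes had an unadjusted p under 0.05, 5 with a higher and 6 with a lower mean in the high group, against 8.93% of all probe sets. None of the 50 had groups that did not overlap, against 1.64% of probe sets. UBE2O read 11.81, 9.80, 8.31, 11.01 and 10.81 in the low group and 8.43, 9.44, 8.24, 8.05 and 9.07 in the high group, a difference of -1.70 (SE 0.56, limma adjusted p = 0.552). Of its arrays 3 low and 0 high ones lay above the gap. LOC100154873 differed by -2.30, with 4 low and 1 high array above its gap. Within the higher spike-in class the difference of UBE2O was -2.09. Within the lower class, which holds 2 low arrays and 1 high array, it was -0.62.

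In CD8+ with W35, 2 of 50 genes, TNF and NAP1L5, had a p under 0.05 against 3.43% of probe sets, and groups did not overlap in 0 genes against 0.408%. TNF read 10.43, 8.25, 7.73, 7.62 and 7.85 in the low and 9.27, 10.27, 9.89, 9.74 and 8.96 in the high group, a difference of 1.25 (SE 0.50, limma adjusted p = 1.0). The low replicate 1 was above every high array, and the other 4 low arrays were below all of them. EGR1 was above its gap in 1 low and 5 high arrays, with a difference of 1.52 (SE 0.80, limma adjusted p = 1.0).

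In IFN-alpha with W35, 6 of 50 genes had a p under 0.05 against 4.24%, and groups did not overlap in 0 genes against 0.638%. VSIG4 read 8.27, 6.14, 4.34, 6.29 and 5.64 in the low and 4.11, 4.13, 4.79, 3.8 and 3.99 in the high group, a difference of -1.97 (SE 0.56, limma adjusted p = 0.999). The low replicate 3 alone reached into the high range, and 4 low and 0 high arrays were above the gap. The difference was -1.92 within the lower and -1.85 within the higher spike-in class. SNRPG differed by 0.73, CAVIN2 by 1.35 and RHOU by 1.29, all with a higher mean in the high group.

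In IL-10 with W35, 2 of 50 genes, NAP1L5 and ITM2A, had a p under 0.05 against 3.19%, and groups did not overlap in 0 genes against 0.533%. ITM2A read 7.30, 7.66, 7.91, 5.50 and 7.88 in the low and 3.73, 4.0, 3.66, 4.05 and 8.50 in the high group, a difference of -2.46 (SE 0.87, limma adjusted p = 1.0). The high replicate 5 was above every low array. The groups also differed in EIF1AY, which was high in 1 of the low and 4 of the high arrays. The part of sex in this difference was not tested.

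In CD4+ with IFN-alpha, 4 of 50 genes had a p under 0.05 against 3.87%, and groups did not overlap in 0 genes against 0.504%. RHOU read 4.66, 7.13, 5.47, 6.48 and 6.38 in the low and 7.57, 6.10, 7.61, 7.51 and 7.92 in the high group, a difference of 1.32 (SE 0.46, limma adjusted p = 0.971). TFPI2 differed by -1.43 and CLU by 0.59. EIF1AY was high in 1 low and all 5 high arrays of this pair.

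In CD4+ with IL-10, 2 of 50 genes had a p under 0.05 against 6.18%, and in both the groups did not overlap, against 1.12% of probe sets. RAB18 read 10.52, 10.06, 10.05, 10.49 and 10.14 in the low and 9.61, 9.24, 9.62, 8.25 and 9.67 in the high group, a difference of -0.98 (SE 0.26, limma adjusted p = 0.749). Only the high replicate 4 lay below the gap, so the groups parted within the upper level rather than across the gap. CR1 read 7.07, 10.16, 6.93, 7.69 and 6.64 in the low and 6.54, 5.73, 6.49, 6.51 and 3.28 in the high group, a difference of -1.99 (SE 0.76, limma adjusted p = 0.749). The nearest arrays of CR1, 6.64 and 6.54, almost touched. Within the higher spike-in class the differences were -1.32 for RAB18 and -1.06 for CR1, and within the lower class, which holds 1 high array, -0.41 and -4.63.

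In CD8+ with IFN-alpha, 7 of 50 genes had a p under 0.05 against 1.98%, 2 with a higher and 5 with a lower mean in the high group. GPM6B alone had groups that did not overlap, against 0.283% of probe sets. GPM6B read 6.21, 6.07, 4.51, 4.87 and 4.56 in the low and 4.23, 3.84, 4.46, 4.41 and 3.72 in the high group, a difference of -1.11 (SE 0.35, limma adjusted p = 1.0). By their animals' normalized averages 2 low arrays and 0 high ones were above the gap, although the deposited values of those 2 arrays, 6.21 and 6.07, lie inside it. GPNMB read 11.34, 10.91, 11.31, 11.67 and 7.19 in the low and 7.75, 6.55, 10.27, 8.05 and 6.63 in the high group, a difference of -2.64 (SE 0.90, limma adjusted p = 1.0). Above its gap were 4 low arrays and 1 high array. The sign of the GPNMB difference was not the same in both spike-in classes, at -4.06 within the higher class and 3.08 within the lower one, which holds 1 array of each group. VSIG4 also differed by -2.64, with 3 low and 1 high array above its gap.

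In CD8+ with IL-10, none of the 50 genes had a p under 0.05 against 2.53%, and groups did not overlap in 0 genes against 0.296%. GPNMB differed by -0.93 (SE 1.01, limma adjusted p = 1.0), with 3 low arrays and 1 high array above its gap.

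**Figure D5:**
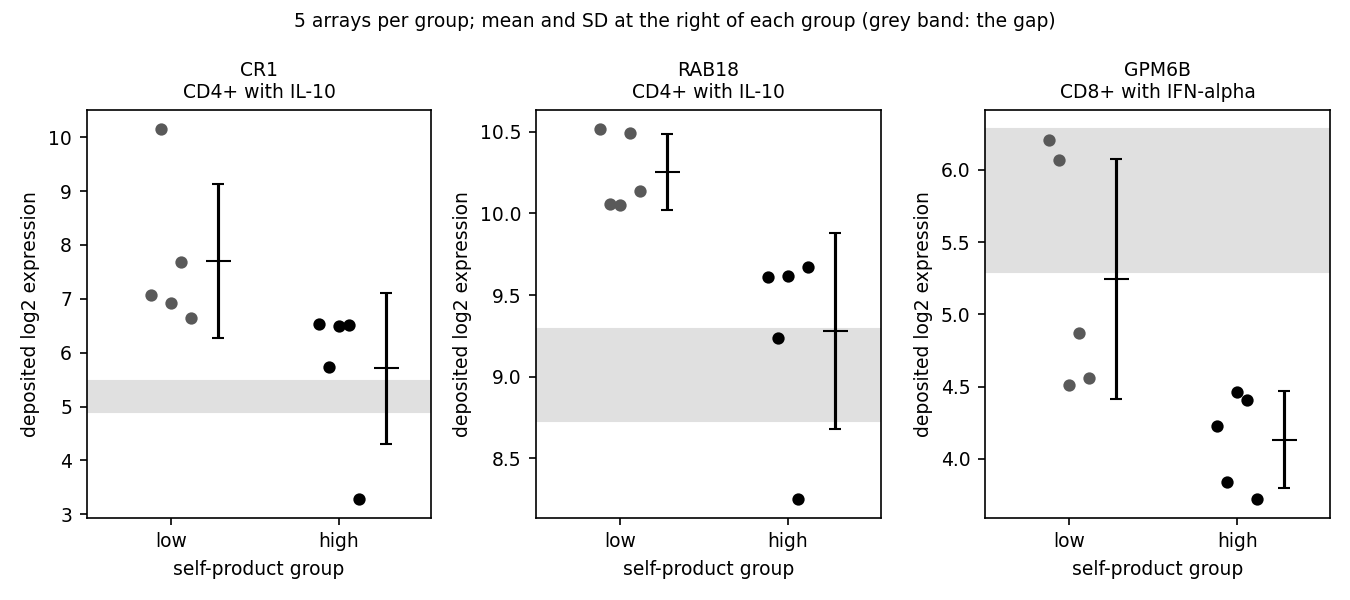
Deposited log2 values of 5 low and 5 high arrays, with mean and SD beside them, for the 3 genes and pairs in which the groups did not overlap. The grey band is the gap on the commonly normalized scale of the 29 pigs. For RAB18 4 of 5 high arrays lie within or above the band.

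Over the 8 pairs, 25 of 50 genes had an unadjusted p under 0.05 in at least 1 pair, 25 in none, and 7 in more than 1. Single arrays moved these counts: leaving out 1 array gave 6 to 19 genes in CD4+ with W35, 0 to 7 in CD8+ with W35, 3 to 9 in IFN-alpha with W35 and 2 to 6 in IL-10 with W35. It gave 2 to 8 in CD4+ with IFN-alpha, 2 to 6 in CD4+ with IL-10, 5 to 10 in CD8+ with IFN-alpha and 0 to 6 in CD8+ with IL-10. The counts with all arrays made 34 of 400 combinations of gene and pair, and 3 combinations had groups without overlap. The median absolute difference of the 50 genes was between 0.40 and 0.68 in the pairs and that of all probe sets between 0.11 and 0.20. Because the genes were selected for spread between the same animals, larger differences in either direction follow from the choice.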

How the data were processed

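Per the submitters' processing notes, the authors made the deposited log2 values per probe set with RMA and also name limma, without versions. Each pair was normalized apart, and array medians ran from 5.17 to 5.80. Of 24123 probe sets, 124 controls were set aside. For levels per animal, the 80 columns were quantile-normalized together and columns with a correlation above 0.99 averaged. The genome build of the array was not given in the sources used here, and RefSeq genes of Sscrofa11.1 served for chromosomes only, with 49 of 50 genes found. Probe sets were named from the platform annotation, with 10069 carrying 1 symbol, 198 several and 13732 none.

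Trait pairs and spike-in classes were tested with lmFit and eBayes of limma 3.58.1 in R 4.3.3, two-sided, with Benjamini-Hochberg adjustment. Files were read with the data.table package (version 1.17.8) and handled with Python 3.11.15, numpy 2.4.6 and pandas 2.3.3. The limma step was tested on simulated data. Same-numbered arrays of a pair correlated between -0.544 and 0.365 after removal of group means, so the replicate number was not taken as a pairing. Marker means used the brightest probe set per gene and left chosen genes out. The list set beside a chosen gene was the marker list that differed most between its sides, picked after the values were seen.

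The members, gene lists and tests were chosen with earlier results of these data known. Values are given for the 20 genes with the largest gap, for genes whose groups did not overlap (up to 4 per pair by p), for up to 6 by spike-in class, for the most alike pairs, for genes of a fixed list or with another probe set, and for those at the edge of the list. TNF, IL18, CLU, TMOD1, TFPI2, NAP1L5 and GPBP1 were named after their values were seen. Alternatives were another normalization, centring, a filter at the median, trend and robust settings, array weights, the replicate and spike-in class as blocks, leaving out each array, and other side sizes or exclusions.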

Additional observations from a re-analysis of the deposited data

Results flagged for a closer look

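Of 6 groups of 5 arrays behind the genes without overlap between high and low, 1 had an array far from the others. CR1 in CD4+ with IL-10 read 3.28 in high replicate 5, a gap of 0.752 of the group's range. Chance flags about 1 in 20 such groups.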

How the results depend on the processing

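No chosen gene passed an adjusted p of 0.05 in a trait pair under any of the alternatives, including an adjusted p under 0.1, and 2 passed between spike-in classes under each. With the replicate block, 0 probe sets passed in each of the 8 pairs, and the number of chosen genes with an unadjusted p under 0.05 was 5 in place of 2 in IL-10 with W35, 8 in place of 2 in CD4+ with IL-10 and 3 in place of 0 in CD8+ with IL-10. Over all probe sets, array weights gave 1 call in IL-10 with W35 and the spike-in class as a block 25 in CD4+ with IL-10. Leaving out 1 array gave 0 to 6 calls in CD4+ with W35 (6 without low replicate 2, 2 without high replicate 4), 0 to 1 in IFN-alpha with W35 (low replicate 3), 0 to 2 in IL-10 with W35 (high replicate 5) and 0 to 7 in CD4+ with IFN-alpha (low replicate 1). Between spike-in classes, centring gave 565 calls and the filter at the median 108, which tests fewer probe sets. The differences of RAB18 and CR1 in CD4+ with IL-10 and of GPM6B in CD8+ with IFN-alpha kept their sign in all alternatives run. The list itself depended on the processing: 28 of 50 genes were shared with deposited values averaged per animal, 26 with centring, 29 with at least 4 and 29 with at least 8 animals on a side, 36 with the first array of an animal and 38 after the filter at the median. Gaps of GPNMB were 1.38 and 1.49 and of RPL32 0.45 and 0.49 with the first 2 of these. The sides of 48 of 50 genes, all but AHSP and TNF, still did not overlap there, but the largest gap could lie elsewhere. A new split put as few as 11 of 29 animals on the same side as before, for ATP6V1C2 with deposited values and for RHOB with centring, and under 20 animals in 5 and 4 genes, while all 29 kept their side in 39 genes with each. Dropping genes at 0.5 or more to EIF1AY, or none, shared 49. The cause of these changes was not tested. Gaps of dim genes rest on signal near background, which these values cannot show.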
